A study of Mus musculus with 6 samples.

Results

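Solute carriers are membrane proteins that move small molecules, ions and metals across cell and organelle membranes, and 306 of their genes were followed here in mouse lung RNA. They were taken by symbol, as every gene named Slc followed by a family number, the letter a and a member number. 7 genes were left out by that rule (Slc34a2, Slc7a10, Slc7a2, Slc2a1, Slc39a14, Slc11a1 and Slc40a1). The rule uses no measured value, though the set was taken up with earlier results of these data known. They are read by 421 of the 41174 probes that are no controls, and 227 of them were tested, among 12968 tested genes in all. The name brings in a few proteins that carry nothing themselves: Slc9a3r1 and Slc9a3r2 are scaffolds that anchor a sodium-proton exchanger, and Slc4a1ap is named after its binding to an anion exchanger.

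Solute carriers work without ATP of their own. Some let a substrate run down its gradient, some exchange substrates, and many couple uptake to sodium, proton or chloride gradients that pumps maintain. Each family shares a fold, but its members can differ in substrate, in membrane and in the cells that make them. In the lung they set the fluid and anions that line the airway, clear amines such as serotonin and noradrenaline from the blood that passes the endothelium, and feed glucose, amino acids, nucleosides and metals to epithelium and leukocytes.

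The study profiled lungs of mice that overexpress the transcription factor T-bet in T cells, to find expression changes that go with pulmonary alveolar proteinosis, a filling of the alveoli with surfactant material. All mice had the C57BL/6 background. The 3 genotypes were WT without the transgene, hCD2-T-bet tg/wt with the transgene on 1 allele, and hCD2-T-bet tg/tg with it on both alleles, and each had 2 arrays. The human CD2 cassette directs the transgene to T cells, so that a change in another lung cell is not a direct reading of it. The labels give neither age nor sex, and do not say whether the arrays of a genotype came from separate mice, so that p-values measure only the spread between these arrays. Slide 1, read in scan 1, held the arrays of WT and tg/tg, whereas those of tg/wt were on slide 2, read in scan 2, so that slide and genotype cannot be told apart in either comparison with tg/wt.

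A level is given as the log2 intensity of a probe relative to the 75th percentile of its array, which was 794 to 1200 intensity units. A level of 0 is at that percentile, and levels of different genes are not compared because each probe has its own brightness. Tbx21, which encodes T-bet, stood at -0.70 and -0.71 in WT, at 1.30 and 1.34 in tg/wt and at 3.25 and 3.26 in tg/tg. The Tbx21 levels thus had the order of the labelled number of transgene alleles. The T cell markers given below had the same order, and their part in the Tbx21 levels was not tested. Arrays of a genotype correlated at 0.997 to 0.998 over the tested carriers, and the median difference between them on the log2 scale was 0.0466 for the WT pair, 0.0736 for the tg/wt pair and 0.0733 for the tg/tg pair. Markers of several cell types differed between the genotypes. Summed linear levels of T cell markers (9 of 10 listed were tested) were 3.38 to 3.57 in WT, rose to 7.79 to 7.84 in tg/wt and lay at 43.3 to 44 in tg/tg. Endothelial markers (10 of 10) were at 188 to 191, 177 to 185 and 88.6 to 88.9 in the same order. In whole lung RNA, fewer cells of a type and less RNA per cell cannot be told apart.

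The promoters of a few carriers with large changes are shown first, because letters of known response elements could be read in them. Each is the 250 bases before a RefSeq start site on GRCm38.p6, 5′ to 3′ on the strand of the gene, and capitals mark a match. Slc7a11, the cystine-glutamate exchanger (chr3:50443614-50443863, minus strand), holds the amino acid response letters TGATGNAA on both strands, with matches at 66 and 47 bases before the start, and the STAT letters TTCNNNGAA at 183. Slc26a4, the anion exchanger pendrin (chr12:31559985-31560234, minus strand), holds the interferon response letters (GAAA, any 2 bases, GAAA) at 147. Slc28a2, a sodium-coupled purine nucleoside carrier (chr2:122426185-122426434, plus strand), holds the STAT letters at 126. These 3 genes were higher in tg/tg. Slc13a4, a sulfate carrier that was lower in tg/tg (chr6:35308127-35308376, minus strand), holds the interferon letters at 229.
Slc7a11: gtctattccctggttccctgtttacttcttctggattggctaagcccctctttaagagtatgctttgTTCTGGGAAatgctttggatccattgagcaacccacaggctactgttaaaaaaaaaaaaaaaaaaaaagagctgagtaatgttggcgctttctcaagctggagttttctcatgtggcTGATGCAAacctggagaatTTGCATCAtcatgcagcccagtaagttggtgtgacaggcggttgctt
Slc26a4: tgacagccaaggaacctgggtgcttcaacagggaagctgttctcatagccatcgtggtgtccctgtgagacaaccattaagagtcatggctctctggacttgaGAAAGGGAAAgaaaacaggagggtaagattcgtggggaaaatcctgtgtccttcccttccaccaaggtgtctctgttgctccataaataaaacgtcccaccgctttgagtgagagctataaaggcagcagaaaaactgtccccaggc
Slc28a2: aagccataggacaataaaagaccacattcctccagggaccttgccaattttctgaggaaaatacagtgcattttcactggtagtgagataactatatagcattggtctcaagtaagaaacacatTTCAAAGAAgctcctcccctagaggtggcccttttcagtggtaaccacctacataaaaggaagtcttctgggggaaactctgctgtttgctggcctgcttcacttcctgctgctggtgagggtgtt
Slc13a4: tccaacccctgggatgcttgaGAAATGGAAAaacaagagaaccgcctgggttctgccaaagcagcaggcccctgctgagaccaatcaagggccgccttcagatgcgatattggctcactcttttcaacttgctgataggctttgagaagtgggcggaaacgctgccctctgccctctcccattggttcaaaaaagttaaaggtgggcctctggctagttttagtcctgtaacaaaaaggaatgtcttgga

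Both strands of every promoter were searched for 6 motifs, and the share of all 27025 genes of the table with a match was 3.46% for the interferon letters, 8.13% for TTCNNNGAA and 3.91% for TGATGNAA. It was 11.5% for the antioxidant response letters TGACNNNGC, 1.63% for the NF-kappaB letters GGGANTTCC and 0.0407% for the direct repeat of PPAR and retinoid receptors (AGGTCA, any base, AGGTCA). Of the 172 tested carriers with a promoter in the table, 2.91% held the interferon letters, 5.81% the STAT letters and 4.07% the amino acid response letters. Of the same 172, 18.6% held the antioxidant letters, 0.581% the NF-kappaB letters and none the repeat. Among the 12 carriers with the largest rise in tg/tg, 10 had a promoter in the table, of which 1 held the interferon letters, 2 the STAT letters, 1 the amino acid response letters, 1 (Slc13a3) the antioxidant letters and none the NF-kappaB letters or the repeat. Of the 12 with the largest fall, 7 had a promoter, of which 1 held the interferon letters and none of them any of the other 5 motifs. The interferon letters thus stood in a promoter of a carrier that rose and of a carrier that fell. A match describes letters in a window and is no measured binding.

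In tg/tg against WT, 74 carriers were higher and 87 lower, and 66 of the 227 did not pass the test (limma, adjusted p below 0.05 over all tested genes). That is 70.9% called, where 74.7% of all tested genes were called. By direction, 32.6% of the carriers were higher and 38.3% lower, against 33.8% and 40.8% of all genes. The median log2 difference was -0.049 for the carriers and -0.0535 for all genes. The share of carriers called was thus near that of all genes, and what follows is about which of them moved which way. More than 2-fold rises were called for 28 of the 227 carriers and more than 2-fold falls for 35. Among all 12968 tested genes these numbers were 1410 and 1592. The counts of classes and lists given below are to be read beside the shares of all genes given here.

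**Figure D1:**
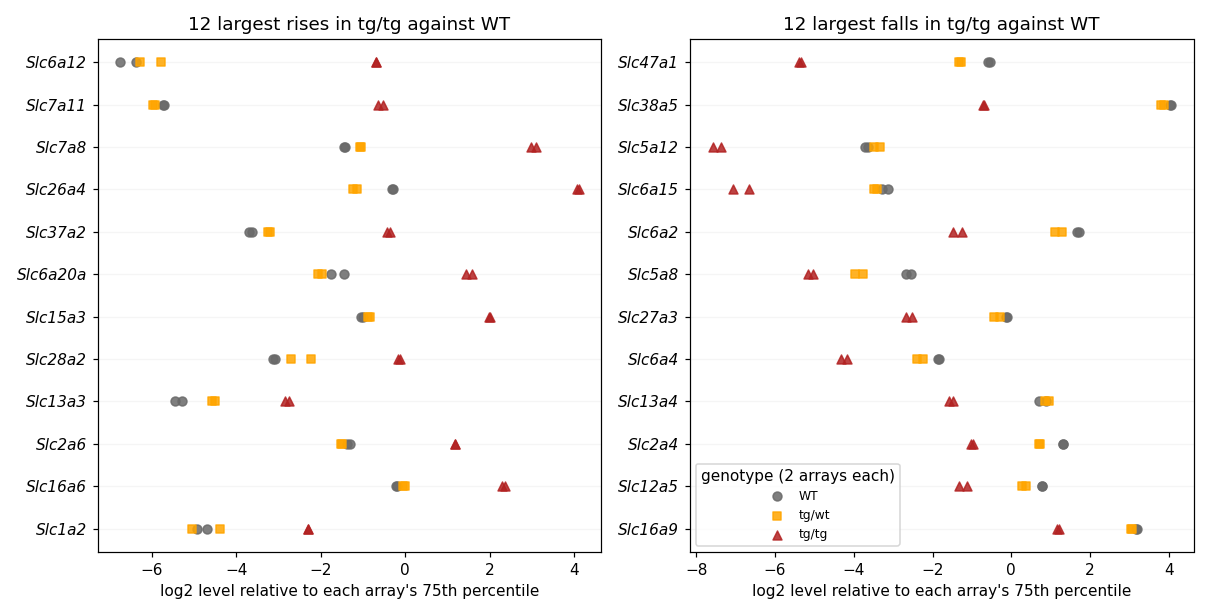
Log2 levels on each of the 6 arrays for the 12 solute carriers with the largest rise (left) and the 12 with the largest fall (right) in tg/tg against WT, relative to each array's 75th percentile; every point is 1 array. Only genes whose tg/tg and WT arrays did not overlap were eligible, so their separation in every line follows from the choice. For Slc7a8 the tg/wt arrays lie at -1.05 and -1.07 and the tg/tg arrays at 2.97 and 3.08. The tg/wt arrays of some genes, such as Slc5a8 and Slc26a4, lie apart from WT too.

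The amino acid carriers divided almost evenly, with 15 higher, 14 lower and 6 not called among 35 tested. Slc7a11 exports glutamate in exchange for cystine, which cells need for glutathione. Its levels were -5.71 and -5.73 in WT, at -5.93 and -5.96 in tg/wt and at -0.53 and -0.63 in tg/tg. The probe was not well above background on any WT or tg/wt array and was well above it on both tg/tg arrays. It thus entered the test only through the group where it is high, and its adjusted p (limma, 6.38e-07) is a description. The rise is a bound: at least 31.1-fold. Such a bound divides the mean of the brighter group by a floor for the dimmer one, which on each array is the lowest signal that any probe well above background had, or the signal of the probe itself where that was higher. Slc7a8, a light chain for neutral amino acids, stood at -1.42 and -1.45 in WT, at -1.05 and -1.07 in tg/wt and at 2.97 and 3.08 in tg/tg. The rise from WT to tg/tg was 22.1-fold (log2 difference 4.46, SE 0.049, adjusted p = 8.09e-07). The imino acid carrier Slc6a20a went from -1.75 and -1.44 in WT to 1.43 and 1.58 in tg/tg, which is 8.58-fold higher (adjusted p = 1.93e-05).

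Other carriers of the class fell. Slc38a5, a glutamine carrier that exchanges sodium and protons, was at 4.04 and 4.05 in WT and at 3.87 and 3.81 in tg/wt, and lay at -0.73 and -0.69 in tg/tg. The tg/tg arrays were 27-fold below WT (log2 difference -4.75, SE 0.038, adjusted p = 6.38e-07). Slc6a15, a carrier of branched-chain amino acids, was at -3.27 and -3.13 in WT and at -3.40 and -3.49 in tg/wt, and was not well above background on either tg/tg array, a fall of at least 4.30-fold (adjusted p = 2.22e-05). Slc1a4 (-1.22), Slc36a2 (-1.18) and Slc1a5 (-0.76), carriers of small neutral amino acids and glutamine, were lower as log2 differences. The neutral and cationic amino acid carrier Slc6a14 (1.43), the light chain Slc7a5 (0.71) and the astrocyte glutamate carrier Slc1a2 (2.51) were higher. Slc3a2, the heavy chain with which Slc7a5, Slc7a8 and Slc7a11 pair, differed by 0.14 (adjusted p = 0.0171), and this call was lost with quantile normalization (0.07), with normexp background correction (0.09) and without WT replicate 1 (0.13), WT replicate 2 (0.15) or tg/tg replicate 1 (0.14). Slc7a14 passed the test (adjusted p = 0.0274) with tg/tg arrays not well above background, which makes it at least 1.77-fold lower, and the call ended without WT replicate 2 (-1.60) or either tg/wt array.

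A fixed list of genes of the amino acid response, the program by which cells short of amino acids raise synthesis and uptake, had 7 members higher and 4 lower of 14 tested. This is 78.6% called, where 74.7% of all tested genes were called. Mthfd2 of mitochondrial folate metabolism (1.68) and Psat1 of serine synthesis (1.65) were higher as log2 differences, while Vldlr (-1.22) and Chac1, which degrades glutathione (-0.61), were lower. The list was thus split between directions.

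Among sugar and sugar phosphate carriers, 5 were higher and 10 lower of 20 tested. Slc37a2, a phosphate-linked glucose-6-phosphate antiporter known from macrophages, was at -3.63 and -3.70 in WT, at -3.20 and -3.26 in tg/wt and at -0.36 and -0.42 in tg/tg. The rise from WT was 9.68-fold (log2 difference 3.28, SE 0.046, adjusted p = 1.32e-06). Slc2a6, a facilitative glucose carrier family member found in leukocytes, rose from -1.31 and -1.39 in WT to 1.19 and 1.18 in tg/tg, 5.79-fold (adjusted p = 1.53e-06). The tg/tg arrays of both genes lay clear of all 4 others. The sodium-glucose cotransporter Slc5a1 was higher too (1.80, adjusted p = 3.52e-05), and Slc2a3, a high-affinity glucose carrier, by a little (0.31, adjusted p = 0.00243).

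The insulin-responsive glucose carrier Slc2a4 went the other way, from 1.31 and 1.32 in WT through 0.74 and 0.70 in tg/wt to -1.01 and -0.97 in tg/tg. It was 4.94-fold lower in tg/tg than in WT (log2 difference -2.30, SE 0.036, adjusted p = 1.62e-06), and the genotypes did not overlap. Slc2a4 is a carrier of fat, heart and skeletal muscle, and the summed markers of these tissues had the same order of genotypes. The summed fat markers (6 of 8 listed were tested, 5 lower and 1 higher in tg/tg) were 22.4 to 23.3 in WT, 13.8 to 14.1 in tg/wt and 1.18 to 1.26 in tg/tg. The summed heart muscle markers (9 of 10 listed, 9 lower) were 239 to 243, 116 to 117 and 14.6 to 14.9, and the skeletal muscle markers (7 of 8 listed, 6 lower) were 7.11 to 7.41, 4.35 to 4.36 and 1.09 to 1.14. In tg/wt against WT, 5 of 6 fat markers and 9 of 9 heart muscle markers were lower and none higher. The skeletal muscle markers were split there, with 3 lower, 2 higher and 2 not called. Of all tested genes, 14.6% were lower and 13.4% higher in that comparison. The part of these markers in the result was not tested.

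**Figure D2:**
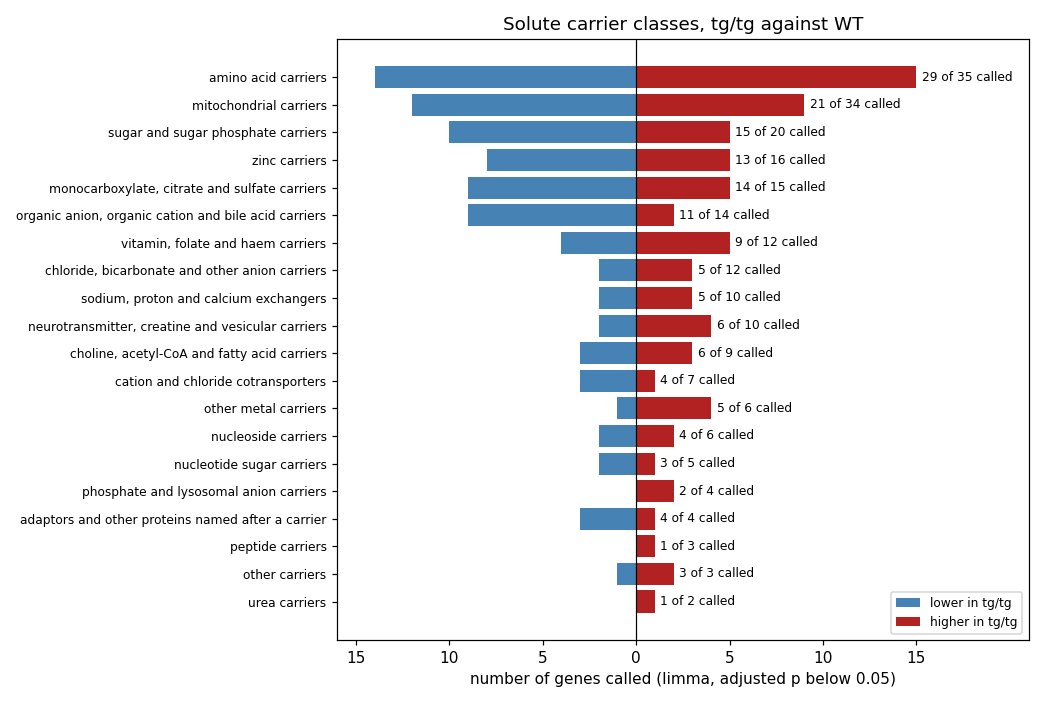
Number of solute carriers called higher (right) and lower (left) in tg/tg against WT by substrate class, with the number called and tested written at each bar. Amino acid carriers were called 15 higher and 14 lower, organic anion, organic cation and bile acid carriers 2 higher and 9 lower.

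The monocarboxylate, citrate and sulfate carriers were called in 14 of 15 genes, 5 higher and 9 lower, in a comparison where 74.7% of all tested genes were called. Slc16a6, a monocarboxylate carrier linked to ketone export, was at -0.20 and -0.22 in WT, at 0.00 and -0.04 in tg/wt and at 2.28 and 2.37 in tg/tg, 5.78-fold above WT (adjusted p = 2.17e-06). Slc16a3, the lactate exporter of glycolytic cells, was at 2.16 and 2.17 in WT and at 4.26 and 4.35 in tg/tg, 4.41-fold higher (adjusted p = 3.1e-06). Slc13a3, a sodium-coupled carrier of dicarboxylates such as succinate, stood at -5.44 and -5.28 in WT, at -4.49 and -4.57 in tg/wt and at -2.74 and -2.84 in tg/tg. Its levels followed the number of transgene alleles without overlap, with 5.93-fold between tg/tg and WT (adjusted p = 7.5e-06).

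The sodium-coupled lactate carriers of the SLC5 family fell. Slc5a8 was at -2.67 and -2.53 in WT and at -3.97 and -3.76 in tg/wt and was not well above background on either tg/tg array, a fall of at least 5.66-fold (adjusted p = 1.77e-05). Slc5a12 was at -3.71 and -3.64 in WT and at -3.34 and -3.49 in tg/wt and was likewise not well above background in tg/tg, at least 3.09-fold lower (adjusted p = 4.7e-06). The sulfate carrier Slc13a4 went from 0.69 and 0.89 in WT and 0.85 and 0.96 in tg/wt to -1.48 and -1.57 in tg/tg, 5.0-fold lower (adjusted p = 1.61e-05). Slc16a9, linked to carnitine efflux, went from 3.18 and 3.19 in WT to 1.16 and 1.21 in tg/tg, 3.99-fold lower (adjusted p = 2.73e-06).

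Of the 14 tested carriers of organic anions, organic cations and bile acids, 9 were lower and 2 higher, with 1 higher without either WT array or without tg/tg replicate 2. Slc47a1, a proton-coupled exporter of organic cations, was at -0.55 and -0.58 in WT and at -1.34 and -1.29 in tg/wt and was not well above background on either tg/tg array. It was at least 26.3-fold lower in tg/tg (adjusted p = 6.38e-07). The steroid sulfate carrier Slc10a6 was lower by a log2 difference of -1.11 (adjusted p = 1.09e-05). Slc22a4, which takes up the antioxidant ergothioneine, was higher: it stood at -3.26 and -3.36 in WT and at -1.23 and -1.01 in tg/tg, 4.58-fold higher (adjusted p = 1.94e-05).

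Among the 10 tested neurotransmitter, creatine and vesicular carriers, 4 were higher and 2 lower. Slc6a12, a betaine and GABA carrier, was not well above background on any WT or tg/wt array and was at -0.69 and -0.68 in tg/tg, a rise of at least 28.9-fold. This gene too entered the test only through its tg/tg arrays, so that its adjusted p (limma, 1.43e-05) is a description. The 2 that fell take up amines at the cell surface, while the vesicular amine carriers Slc18a1 (0.06) and Slc18a2 (-0.63, adjusted p = 0.0601) did not pass the test. Slc6a2, which takes up noradrenaline, went from 1.68 and 1.73 in WT and 1.12 and 1.28 in tg/wt to -1.25 and -1.49 in tg/tg, 8.44-fold below WT (adjusted p = 1.15e-05). Slc6a4, which takes up serotonin, went from -1.87 and -1.83 in WT and -2.25 and -2.39 in tg/wt to -4.33 and -4.18 in tg/tg, 5.33-fold below WT (adjusted p = 9.54e-06). Both genes were lower on every tg/tg array than on every other array. Endothelial markers, whose cells are known to clear these amines in the lung, were lower in 10 of 10 genes in tg/tg against WT. In tg/wt against WT, 2 of these markers were higher, 2 lower and 6 not called, with a median log2 difference of 0.03. The part of these markers in the result was not tested.

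Of 12 tested chloride, bicarbonate and other anion carriers, 3 were higher and 2 lower, and those of the airway moved unequally. Slc26a4 was at -0.28 and -0.31 in WT, at -1.14 and -1.23 in tg/wt and at 4.07 and 4.10 in tg/tg. Against WT, tg/tg was 20.8-fold higher (log2 difference 4.38, SE 0.044, adjusted p = 6.67e-07). Slc26a9, an epithelial chloride carrier, differed by 0.42 (adjusted p = 0.00333), and Slc12a2, which loads epithelial cells with chloride, by 0.03 (adjusted p = 0.716). Airway epithelium markers were lower in 9 of 9 tested genes in tg/tg, with sums of 846 to 860 in WT, 680 to 819 in tg/wt and 379 to 426 in tg/tg, so that the summed markers and Slc26a4 had opposite directions.

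Slc4a1, the anion exchanger of red cells, was lower in tg/tg by a log2 difference of -1.10 (adjusted p = 3.36e-05), and the summed erythroid markers, of which 2 of 8 were tested, were 385 to 392 in WT and 214 to 217 in tg/tg. Slc4a3, an exchanger of heart and brain, was lower by a log2 difference of -1.17 (adjusted p = 1.74e-05) beside the fall of the heart muscle markers, whose part was not tested. Slc12a5, a potassium-chloride cotransporter known from neurons, went from 0.79 and 0.79 in WT and 0.38 and 0.27 in tg/wt to -1.33 and -1.13 in tg/tg, 4.06-fold below WT (adjusted p = 2.23e-05). Slc12a9 of the same family was higher (0.52). Of 10 tested sodium, proton and calcium exchangers, 3 were higher and 2 lower, with Slc24a3 at -0.95.

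Of the 6 tested nucleoside carriers 2 were higher and 2 lower, and of the 3 peptide carriers 1 was higher and none lower. Slc28a2 was at -3.12 and -3.07 in WT, at -2.70 and -2.24 in tg/wt and at -0.17 and -0.13 in tg/tg, 7.70-fold above WT (adjusted p = 5.7e-05). Slc15a3, a proton-coupled carrier of histidine and peptides in lysosomes, was at -1.0 and -1.05 in WT, at -0.83 and -0.89 in tg/wt and at 1.97 and 1.99 in tg/tg, 8.04-fold above WT (adjusted p = 1.18e-06). The lysosomal nucleoside carrier Slc29a3 (1.16) and Slc66a1, which exports cationic amino acids from lysosomes (1.26), were also higher as log2 differences. Other lysosomal carriers did not pass the test, such as Slc15a4 (0.12, adjusted p = 0.0796) and Slc17a5 (0.10, adjusted p = 0.191). The equilibrative nucleoside carrier Slc29a1, at -1.33 (adjusted p = 1.05e-05), and the concentrative carrier Slc28a3, at -0.77 (adjusted p = 0.00053), were lower. Monocyte and macrophage markers, 7 of 10 listed and all 7 higher in tg/tg, summed to 10.5 to 10.8 in WT, 16.5 to 16.8 in tg/wt and 142 to 148 in tg/tg. Alveolar macrophage markers, of which 9 of 10 were tested, mostly went the other way, with 8 lower and 1 higher in tg/tg. Their median log2 difference was -2.38. The part of either list in the rise of Slc15a3, Slc37a2, Slc29a3 and Slc28a2 was not tested.

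Vitamin and metal carriers moved in both directions as well. Of 12 vitamin, folate and haem carriers, 5 were higher and 4 lower, with the proton-coupled folate carrier Slc46a1 4.09-fold higher (from -0.25 and -0.21 in WT to 1.90 and 1.70 in tg/tg, adjusted p = 2.71e-05). The ascorbate carrier Slc23a1 was 2.39-fold lower (adjusted p = 6.42e-06). Slc19a3, a thiamine carrier, had an adjusted p of 0.049 with tg/tg arrays at -3.64 and -4.97, and the call ended without any 1 array other than tg/tg replicate 2. Without tg/tg replicate 1 its log2 difference was 0.75 in place of 1.42. Of 16 zinc carriers, 5 were higher and 8 lower, with 3 higher without WT replicate 1 or tg/tg replicate 1 and 5 lower without WT replicate 2. The plasma membrane importer Slc39a1 (0.82) and the Golgi carrier Slc30a7 (1.04) were higher as log2 differences, and the zinc exporter Slc30a1 (-0.84) and Slc39a3 (-0.76) were lower. The mean of the probes of Slc30a1 gave -0.33. Both copper carriers of the SLC31 family were higher, Slc31a1 by 0.74 and Slc31a2 by 1.30, and so were the magnesium carrier Slc41a2 (1.27) and the phosphate carrier Slc20a1 (1.29). With the mean of their probes Slc31a1 gave 0.46 and Slc20a1 0.81, and the probes of Slc20a1 were called in opposite directions in tg/tg against tg/wt.

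Of 34 tested mitochondrial carriers of the SLC25 family, 9 were higher, 12 lower and 13 not called. The probes of Slc25a37, an iron importer, disagreed: the brighter one, which stands for the gene, differed by -0.08 and was not called, while the other was higher by 1.57 in tg/tg against WT. Slc25a33, a pyrimidine nucleotide carrier, went from 2.77 and 2.71 in WT to 1.16 and 1.21 in tg/tg (log2 difference -1.56, SE 0.049, adjusted p = 1.02e-05). The heart and muscle ADP/ATP carrier Slc25a4 was at 6.53 and 6.55 in WT, at 6.03 and 6.13 in tg/wt and at 5.65 and 5.58 in tg/tg, in the order of the heart muscle markers. Slc25a45 was higher by 0.63 and the carnitine-acylcarnitine carrier Slc25a20 by 0.42. Among fatty acid and choline carriers, 3 were higher and 3 lower of 9, with 1 higher without either WT array. Slc27a3, an acyl-CoA synthetase by activity, went from -0.13 and -0.12 in WT to -2.53 and -2.67 in tg/tg, 5.57-fold lower (adjusted p = 8.31e-06). Slc27a1 of the same family was higher by 0.51.

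**Figure D3:**
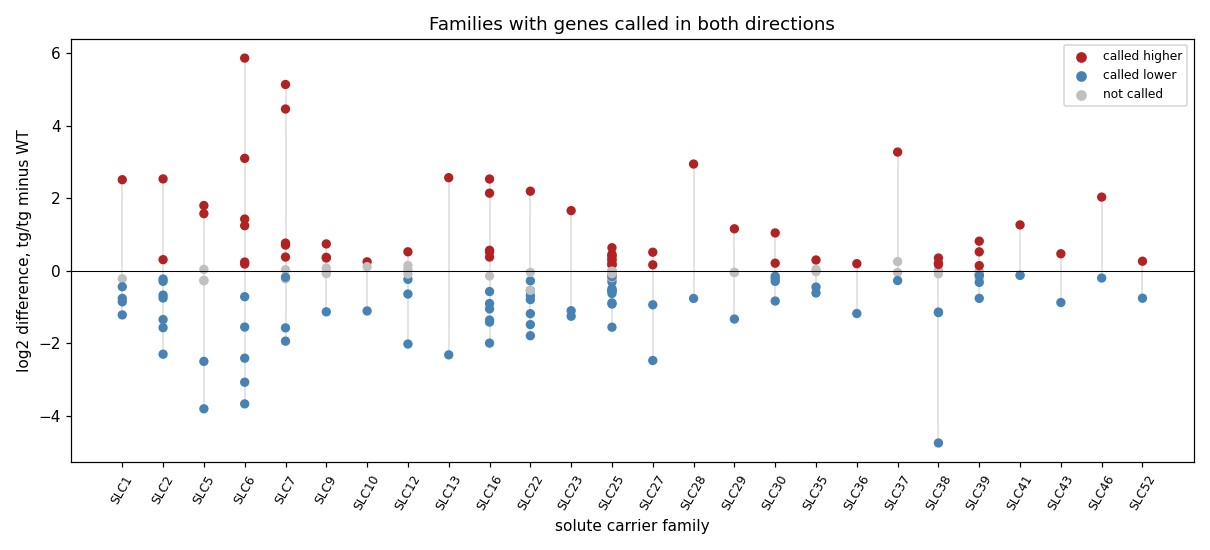
Log2 difference between tg/tg and WT for every tested member of the families with genes called in both directions; each point is a gene, red called higher, blue called lower and grey not called. Points of genes not well above background in 1 genotype show the fitted value and not the bound, as for Slc6a15 (at least 4.30-fold lower) and Slc6a12 (at least 28.9-fold higher) at the ends of the SLC6 family.

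Of 47 families with a tested member, 41 had at least 2 tested members, and 26 had genes called higher and genes called lower in tg/tg against WT. In the SLC6 family 6 were higher and 5 lower of 12, in SLC7 5 and 3 of 10, and in SLC16 5 and 6 of 12. Other families leaned to one side, such as SLC22 with 1 higher and 7 lower of 10 and SLC2 with 2 higher and 7 lower of 9. The 7 lower of SLC2 include Slc2a9, whose probes were called in opposite directions. Only higher calls were made in 11 families and only lower calls in 7. These counts are a description: most of all tested genes were called, in both directions, and the share of split groups among other genes was not computed.

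Of the 161 carriers called in tg/tg against WT, 149 were well above background on all arrays of both genotypes. The fold of 10 is a bound and 2 were measured on some arrays only. A gene measured only where it is high had to differ to enter, so the counts and the p-values of such genes are descriptions. With normexp background correction the fitted log2 differences of dim genes shrank, to 3.1 for Slc6a12, 3.16 for Slc7a11, -2.80 for Slc47a1, -0.96 for Slc5a12, -1.03 for Slc5a8, -1.11 for Slc6a15, -1.50 for Slc6a4, 1.18 for Slc13a3 and 1.39 for Slc1a2, all still called.

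In tg/wt against WT, far fewer carriers were called: 18 higher and 48 lower of 227. This is 29.1%, where 27.9% of all tested genes were called. By direction, 7.93% of the carriers were higher and 21.1% lower, against 13.4% and 14.6% of all genes. Leaving out a single WT or tg/wt array brought the lower calls to 17 to 23 and the higher calls to 5 to 10, so the counts rest on every array: 8 higher and 18 lower without WT replicate 1, 5 and 19 without WT replicate 2, 10 and 23 without tg/wt replicate 1, and 8 and 17 without tg/wt replicate 2.

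The 6 largest falls kept their calls when an array was left out. They do not stand for all 48 lower calls, most of which were lost without 1 WT or tg/wt array. Slc5a8 went from -2.67 and -2.53 in WT to -3.97 and -3.76 in tg/wt, 2.41-fold lower (adjusted p = 0.00182). Slc26a4 was 1.86-fold lower (adjusted p = 0.000755), Slc4a1 1.84-fold lower (adjusted p = 0.00106), Slc28a3 1.76-fold lower (adjusted p = 0.00331) and Slc47a1 1.68-fold lower (adjusted p = 0.00102). Slc2a5, a fructose carrier, differed by a log2 value of -1.43 (adjusted p = 0.00345), but it was well above background on only 1 of the 2 tg/wt arrays, and normexp correction gave -0.55. These 6 calls remained when any 1 array was left out. Slc2a4 (-0.59) and Slc16a3 (-0.61) fell by smaller amounts, with calls that also remained.

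The rises were led by Slc4a9, an anion exchanger related to those of the kidney, at -3.26 and -3.65 in WT and at -2.49 and -2.36 in tg/wt, 2.04-fold higher (adjusted p = 0.0183), a call lost without WT replicate 2 (log2 difference 0.83), tg/wt replicate 1 (1.09) or tg/wt replicate 2 (0.97). Slc13a3 was 1.78-fold higher (adjusted p = 0.00296), but 0.16 and not called with normexp correction. Slc26a10 was 1.45-fold higher (adjusted p = 0.00303). Slc28a2 (0.63), the urea carrier Slc14a2 (0.50) and Slc5a4b (0.77), which was well above background only in tg/wt, passed the test with all arrays. Slc5a4b entered the test only through its tg/wt arrays, so that its call is a description. For Slc28a2 the call was lost without either WT array or either tg/tg array, and the difference was 0.40 without tg/wt replicate 2. It was lost for Slc14a2 without any 1 WT or tg/wt array, and for Slc5a4b without WT replicate 2, tg/wt replicate 2 or either tg/tg array.

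**Figure D4:**
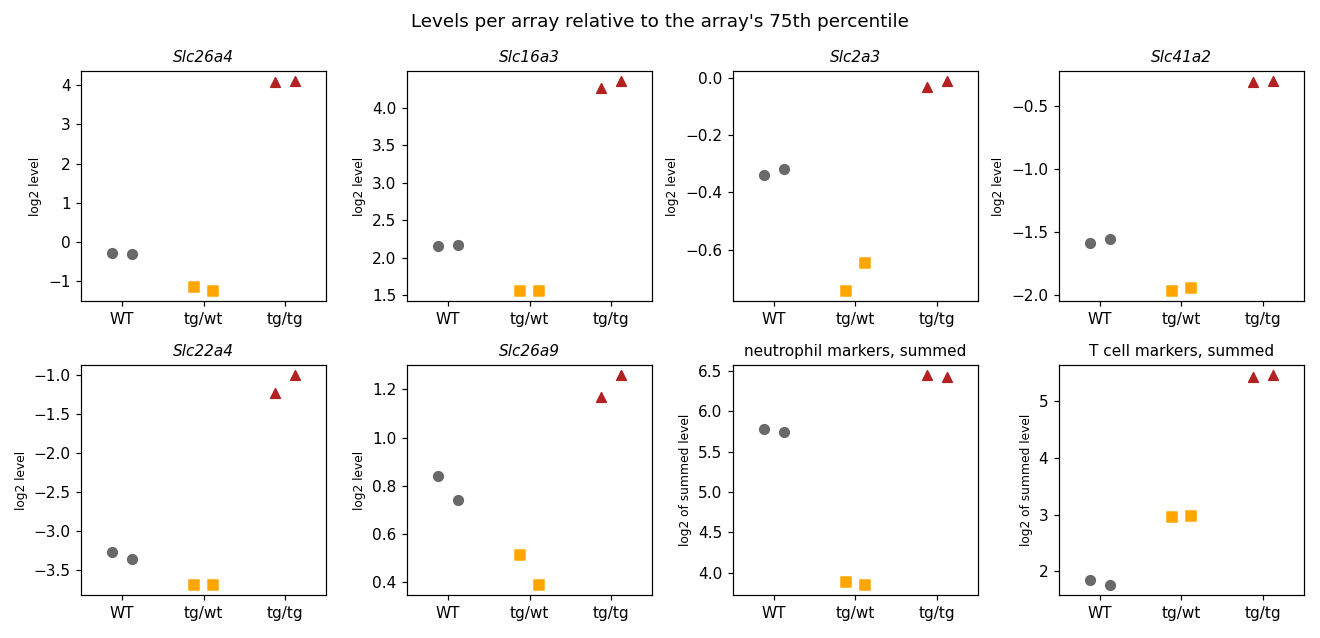
Log2 levels per array of 6 solute carriers with their lowest levels in tg/wt, with the log2 of the summed levels of neutrophil and of T cell markers at lower right; each point is 1 array and the vertical axes differ. For Slc26a4 the tg/wt arrays lie at -1.14 and -1.23, below WT at -0.28 and -0.31 and far below tg/tg at 4.07 and 4.10.

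Several carriers that were lower in tg/wt than in WT were higher in tg/tg than in WT, 2 comparisons that share the WT arrays. Those given here are examples picked for this order, and the number with it was not counted among carriers or all genes. The tg/wt arrays are also those of slide 2, so that genotype and slide cannot be told apart. The log2 difference was -0.89 in tg/wt and 4.38 in tg/tg for Slc26a4, and -0.61 and 2.14 for Slc16a3. For Slc22a4 it was -0.37 and 2.20, for Slc41a2 -0.38 and 1.27, for Slc2a3 -0.37 and 0.31, and for Slc26a9 -0.34 and 0.42. In tg/wt the call of Slc22a4 was lost without any 1 WT or tg/wt array (-0.32 to -0.42), and that of Slc26a9 without either WT array or tg/wt replicate 2 (-0.28 to -0.39). The neutrophil markers, 8 of 10 listed, had the same order of genotypes, with sums of 53.4 to 55.0 in WT, 14.4 to 14.8 in tg/wt and 86.1 to 86.9 in tg/tg. They were lower in 7 of 8 genes in tg/wt and higher in 8 of 8 in tg/tg, and their part in these carriers was not tested.

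Between the transgenic genotypes, 75 carriers were higher and 91 lower in tg/tg than in tg/wt, 73.1% called against 74.2% of all genes. Of all genes 34% were higher and 40.2% lower. Large measured rises were those of Slc26a4 (log2 difference 5.27) and Slc7a8 (4.09). Slc7a11 and Slc6a12 were not well above background in tg/wt and were at least 30.7-fold and at least 28.5-fold higher in tg/tg, so that their order against Slc26a4 is not known. Slc38a5 had a large measured fall (-4.55). Slc47a1 and Slc5a12 were not well above background in tg/tg, and were at least 15.6-fold and at least 3.70-fold lower. The number of transgene alleles differs between these genotypes, and so does the slide.

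Carriers of the superfamily with other symbols were followed as a fixed list of 22 genes, of which 18 were tested. In tg/tg against WT 3 were higher and 10 lower, which is 16.7% and 55.6%, where 33.8% and 40.8% of all genes were. The organic anion carrier Slco4a1 was higher by 2.23 on the log2 scale. The organic anion carrier Slco2b1 was lower (-1.92). The mitochondrial uncoupling protein Ucp3, known from muscle and brown fat, was not well above background on either tg/tg array and was at least 1.67-fold lower. Among proteins that partner with or regulate carriers, 6 were higher and 2 lower of 12 tested (50% and 16.7%), with Ahcyl1, a regulator of bicarbonate and anion carriers, higher by 0.91.

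Of the 227 tested carriers, 208 were well above background on all 6 arrays, 12 on 3 to 5 arrays and 7 on exactly 2. The other 79 were not tested: 67 were well above background on no array and 12 on exactly 1 array, which was tg/wt replicate 1, the brightest array, for 6 of them. Slc4a4, a sodium bicarbonate cotransporter, and Slc22a3, an organic cation carrier, are among the untested genes. Of 72 tested carriers read by several probes, Slc2a9 and Slc38a9 had probes called in opposite directions in tg/tg against WT, and their direction is uncertain.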

How the data were processed

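Per the labels' protocols, lung total RNA was column-purified and labelled with Cy3 for 1-colour arrays. Per the file headers, the deposited intensity values are linear processed signals, background-subtracted within each array and unscaled between arrays, from Agilent Feature Extraction 9.5.3.1, whereas the submitters' processing notes name 9.1. To scale the arrays, log2 of each intensity minus its array's 75th percentile was computed. Control spots and outlier spots were left out. Probes were named by accession through RefSeq (GRCm38.p6): 22951 of 41174 matched a symbol. The files used here hold no gene name column, so accession was the only route. Probes well above background on at least 2 of 6 arrays were tested, with 1 probe per gene, that with the highest mean over all arrays.

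All 6 arrays entered a group-means model (limma 3.58.1, lmFit and eBayes; R 4.3.3), with 3 residual and 1.77 prior degrees of freedom and Benjamini-Hochberg adjustment over 12968 genes. The number of arrays, 2 per group, limits the precision. Named genes are the 12 largest called rises and falls in tg/tg against WT by fitted difference, 6 in each other comparison, up to 3 per substrate class, the extremes of families called both ways, and a fixed list. The members, classes and lists were chosen with earlier results of these data known; the class of Slc4a1ap was added after the files were seen. Alternatives covered scaling, background correction, filters, probe choice, the deposited series table, moderation, a replicate block and leaving out each array. Figures used Python 3.11.15 and matplotlib 3.10.9. Some named genes are not reported here.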

Additional observations from a re-analysis of the deposited data

How the results depend on the processing

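The counts of carriers called in tg/tg against WT, and in tg/tg against tg/wt, stayed within 1.5 times under every alternative run; without 1 array they were 62 to 74 higher and 77 to 85 lower in tg/tg against WT, and 67 to 75 higher and 80 to 89 lower in tg/tg against tg/wt. In tg/wt against WT the 18 higher calls became 9 with normexp correction, 11 without the filter on dim probes and 28 with an intensity trend in the moderation, and the 48 lower calls became 30 without the filter; without 1 array they were 5 to 17 higher and 17 to 44 lower. The mean of a gene's probes reversed Slc15a2 (0.16, adjusted p = 0.0621 by limma, in place of -0.25) and Slc7a11 (0.094, adjusted p = 0.778 by limma, in place of -0.22, not well above background on either side) in tg/wt against WT; the cause was not tested. The series table gave -15.12 for Slc5a12 in tg/tg against WT, a gene for which the text gives only a bound. In that setting, values at or below 0 were raised to the lowest positive value of their array before the log2. Replicate numbers do not pair the arrays: deviations of same-numbered arrays correlated at 0.129 (WT and tg/wt), -0.048 (WT and tg/tg) and -0.046 (tg/wt and tg/tg). With a replicate block 72 were higher and 83 lower in tg/tg against WT, 12 and 34 in tg/wt against WT, and 70 and 88 in tg/tg against tg/wt. Restricting the names to probes matched to RefSeq gave the same probes, so it is no separate setting. Slide could not be fitted as a block because each genotype lies on 1 slide. Signal over background limits the 79 carriers that were not tested.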
